A study of Mus musculus with 10 samples.

Results

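Olig1 and Olig2 are neighbouring genes on mouse chromosome 16 that encode basic helix-loop-helix (bHLH) transcription factors. Open chromatin around them was described in 10 ATAC-seq peak lists by taking every peak whose summit lay between the genes or within 100 kb on either side (chr16:91125457-91371933, GRCm38, a window of 246.477 kb). Peaks of the 10 lists that overlapped by at least 1 bp were merged, which gave 31 regions in the window out of 137454 in all. In GENCODE M21, Olig2 (ENSMUSG00000039830, chr16:91225457-91228677) and Olig1 (ENSMUSG00000046160, chr16:91269772-91271933) both lie on the plus strand, and their start sites are 44.3 kb apart. Regions are named here by the distance of their lead summit, the summit of highest within-list rank, from the Olig2 start site.

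The cultures were neural stem cells from the subependymal zone (SEZ), a neurogenic niche of the adult brain, of 10-week-old mice. They were wild type (WT) or carried a null allele of Cdkn1b (p27KO), the gene of the cell cycle inhibitor p27, and per the study's methods the mutant was kept on a C57BL/6J background. Proliferating cells (PRO) were neurospheres at 3 days in vitro, as the labels and methods state (the study names another culture age elsewhere), with EGF at 20 ng/ml and FGF at 10 ng/ml. Differentiating cells (DIFF) had spent 2 days on Matrigel with FGF and then 24 h in mitogen-free medium with 2% serum, so that loss of mitogens, attachment and serum cannot be told apart. Each library came from 50000 cells, with 3 WT libraries and 2 p27KO libraries in each of the conditions. The free text of the p27KO samples names WT cells against their titles and genotype, and groups were taken from the titles. A peak over Cdkn1b was present in 6 of 6 WT and 0 of 4 p27KO libraries. Peaks at the Y-linked genes Ddx3y, Eif2s3y and Uty split the libraries in the same way, so that genotype and the presence of Y-linked peaks cannot be told apart.

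OLIG2 is required for motor neuron and oligodendrocyte progenitor specification in the developing neural tube, where it is induced by Sonic hedgehog. OLIG1 acts later, mainly in oligodendrocyte maturation and remyelination. In the adult SEZ, OLIG2 marks part of the transit amplifying progenitors and the cells that enter the oligodendrocyte lineage. Both proteins bind E-boxes, short DNA sites that are shared by the bHLH family.

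ATAC-seq reports where a transposase can reach the DNA, and the fold enrichment of a peak compares the read pileup at its summit with nearby background in that library, as a ratio. The lists held 57534 to 91801 peaks, and since read numbers are not part of them, the depth of each library is unknown and an empty region only means that no peak was called there. Promoter peaks of the neural stem or progenitor markers (6 of 6 genes, among them Sox2 and Nes) were present in all 10 libraries. Among oligodendrocyte lineage markers, Olig1, Olig2 and Pdgfra had a promoter peak in all 10 libraries and Cspg4 in 8, whereas Sox10 and Mog had one in 1 library each and Mag in 0. Of 4 endothelial markers, 0 had a promoter peak in all 10 libraries, and of 5 microglial markers, Cx3cr1, Trem2 and Itgam had none while P2ry12 and Aif1 had one in every library.

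To show the DNA behind the main results, stretches of 4 regions are given 5′ to 3′ on the plus strand of GRCm38. The first is the part of the RefSeq promoter of Olig2 that lies upstream of the GENCODE start site (chr16:91225300-91225456), with CG dinucleotides in capitals. Its 157 bases were 66.9% G or C and held 14 CG dinucleotides. The promoter table used here has no entry for Olig1. The others are 200 bases around the lead summits of the −33.5 kb region (chr16:91191854-91192053), which ranked highest in the window, and of the +8.2 kb (chr16:91233519-91233718) and +55.2 kb (chr16:91280604-91280803) regions, which ranked lower at DIFF. In these, capitals mark E-boxes (CANNTG), SOX letters (ACAATG or ACAAAG) and AP-1 letters (TGANTCA) on either strand.

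Olig2 promoter: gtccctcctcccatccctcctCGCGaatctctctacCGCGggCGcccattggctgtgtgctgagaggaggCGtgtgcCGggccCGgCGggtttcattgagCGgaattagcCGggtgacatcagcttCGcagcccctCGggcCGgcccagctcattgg
−33.5 kb region: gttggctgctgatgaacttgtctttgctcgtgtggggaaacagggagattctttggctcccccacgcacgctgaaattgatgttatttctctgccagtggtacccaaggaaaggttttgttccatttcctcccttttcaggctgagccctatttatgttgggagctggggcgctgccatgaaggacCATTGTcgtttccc
+8.2 kb region: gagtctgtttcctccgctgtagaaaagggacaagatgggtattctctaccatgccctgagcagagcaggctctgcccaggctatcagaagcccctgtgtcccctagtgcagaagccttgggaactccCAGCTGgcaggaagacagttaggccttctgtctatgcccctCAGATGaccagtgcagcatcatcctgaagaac
+55.2 kb region: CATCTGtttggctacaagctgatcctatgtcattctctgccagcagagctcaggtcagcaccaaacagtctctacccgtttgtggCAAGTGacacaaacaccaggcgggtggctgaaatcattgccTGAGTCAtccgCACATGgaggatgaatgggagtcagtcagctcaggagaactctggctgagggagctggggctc

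The −33.5 kb stretch held 1 SOX match, the +8.2 kb stretch 2 E-boxes and the +55.2 kb stretch 3 E-boxes and 1 AP-1 match. Letters of these families were then counted in 300 bases around the lead summit of each region. E-boxes were present in 23 of the 31 windows, and in 16 of the 19 regions seen in 5 or more libraries (84.2%), beside 78.8% of the 70489 windows of such regions across the genome. The E-box form CANATG, which OLIG proteins favour and which is contained in the general E-box, occurred in 15 of 31 windows and in 13 of the 19 (68.4%, beside 47.7%). SOX letters ACAAAG were found in 8 windows, all among the 19 (42.1%, beside 27.2%), and ACAATG in 6, of which 5 were among the 19 (26.3%, beside 15.4%), the Olig2 promoter included. AP-1 letters occurred in 5 windows and in 2 of the 19 (10.5%, beside 10.8%). E2F letters (TTCCCGC) occurred in 2, both among the 19 (10.5%, beside 2.90%), namely the Olig2 promoter and the +45.3 kb region within Olig1. The Olig2 promoter stretch printed above held 0 matches to these families, so its SOX and E2F matches lie elsewhere in the 300 bases. ETS letters (CCGGAAG) and the palindromic NFI motif were found in 0 of 31 windows and in 4.94% and 0.129% of the genome-wide windows. These shares are descriptions of 19 regions and were not tested. Median G and C content was 54.7% in the 19 regions and 51.0% genome-wide. It was highest at the Olig1 promoter (68.0%, 26 CG dinucleotides) and the Olig2 promoter (67.3%, 22 CG dinucleotides) and lowest at the +133.2 kb region (44.0%).

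Of the 31 regions, 12 held a peak in all 10 libraries (38.7%, against 27.5% of all merged regions), 7 in 5 to 9, 3 in 2 to 4 and 9 in 1 library. The median width was 457 bp in the window and 331 bp over all merged regions. The regions present throughout lay on both sides of the gene pair, at −85.8, −51.3, −33.5 and −2.8 kb, at both promoters, at +8.2 kb, at +37.5 and +40.7 kb just upstream of Olig1, and at +78.9, +80.3 and +88.9 kb. The last 3 fall in introns of Gm15966, a long intergenic non-coding RNA gene on the opposite strand that starts beyond Olig1 and whose 3′ end overlaps that of Olig1. The 9 regions seen in 1 library had fold enrichments of 2.25 to 3.60 and stood between the 0.392 and 17.4 percentile of their lists.

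**Figure D1:**
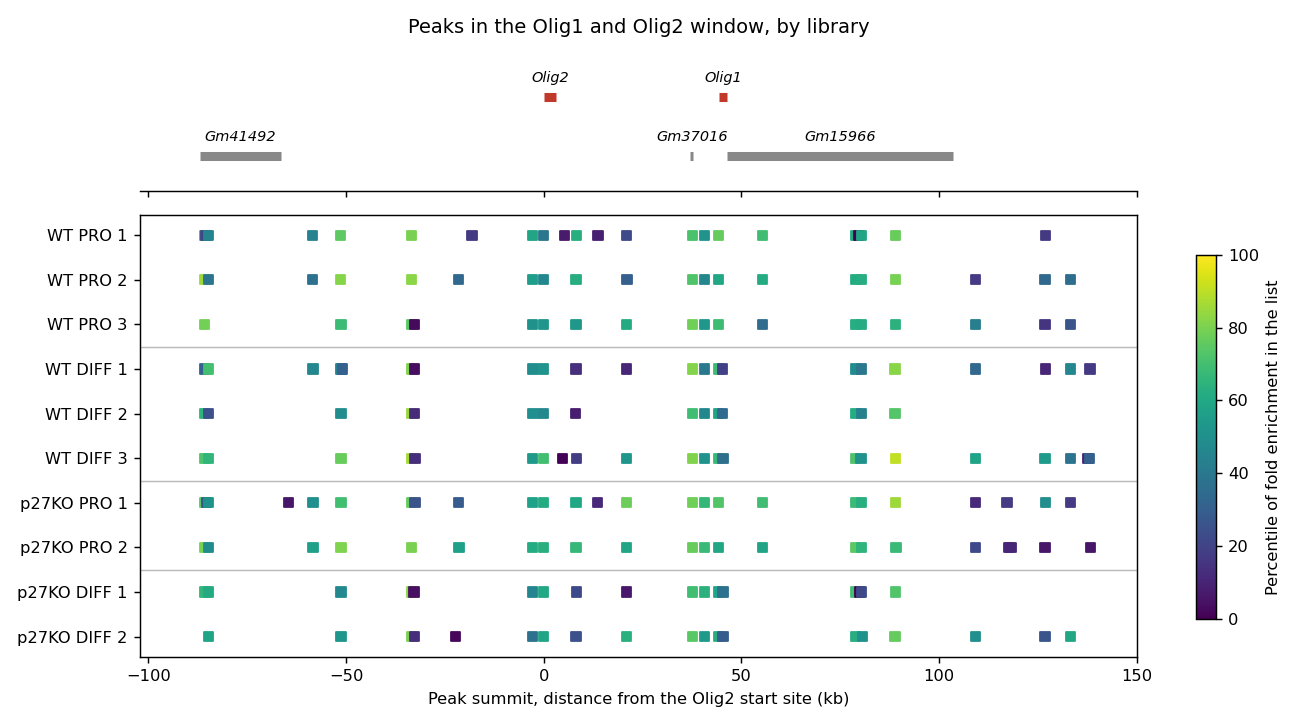
Peaks of the Olig1 and Olig2 window in each of the 10 libraries (rows), placed by the distance of the summit from the Olig2 start site in kb (horizontal axis) and coloured by the percentile of fold enrichment in the library's own list, below 5 of the genes annotated there. Columns of squares at the same place in every row are the 12 regions present in all libraries, and the column at +55.2 kb is filled in the PRO rows only.

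The strongest site of the locus was the intergenic −33.5 kb region (chr16:91191110-91193237), which was 2128 bp wide after merging. Its fold enrichments were 10.1, 10.9 and 8.73 in WT PRO, 8.99, 9.73 and 11.4 in WT DIFF, 9.22 and 10.1 in p27KO PRO, and 10.3 and 10.98 in p27KO DIFF. All 10 libraries placed it between the 75.0 and 86.5 percentile of their lists, and the groups overlapped. Each of the 5 DIFF lists held 2 peaks there (median width 729 bp over the 10 peaks), and the 5 PRO lists held 7 in all (median width 1217 bp).

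The next in order of mean percentile were the +88.9 kb (76.8), +37.5 kb (75.2), −85.8 kb (71.6) and +44.2 kb (65.3) regions. The +88.9 kb region, in an intron of Gm15966, had fold enrichments of 7.02 to 12.9 with a median of 9.42 over the 10 libraries, and PRO and DIFF overlapped. At +37.5 kb, 6.8 kb upstream of Olig1 in an exon of the transcript Gm37016, values ran from 7.08 to 9.85 with a median of 9.26. The −85.8 kb region, in an intron of the non-coding RNA gene Gm41492, ran from 6.58 to 11.6, and its mean was 9.55 ± 1.39 (SD, n = 5) at PRO and 7.15 ± 0.491 (SD, n = 5) at DIFF. It joins peaks with summits up to 1028 bp apart, and the highest was taken in each list. In WT DIFF replicate 1 and p27KO DIFF replicate 2 that summit lay at −84844 and −84850 bp, and the WT DIFF replicate 1 peak at −85798 bp had 4.27. None of these 4 sites, among them the Olig1 promoter at +44.2 kb, passed the test between conditions that is given below.

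**Figure D2:**
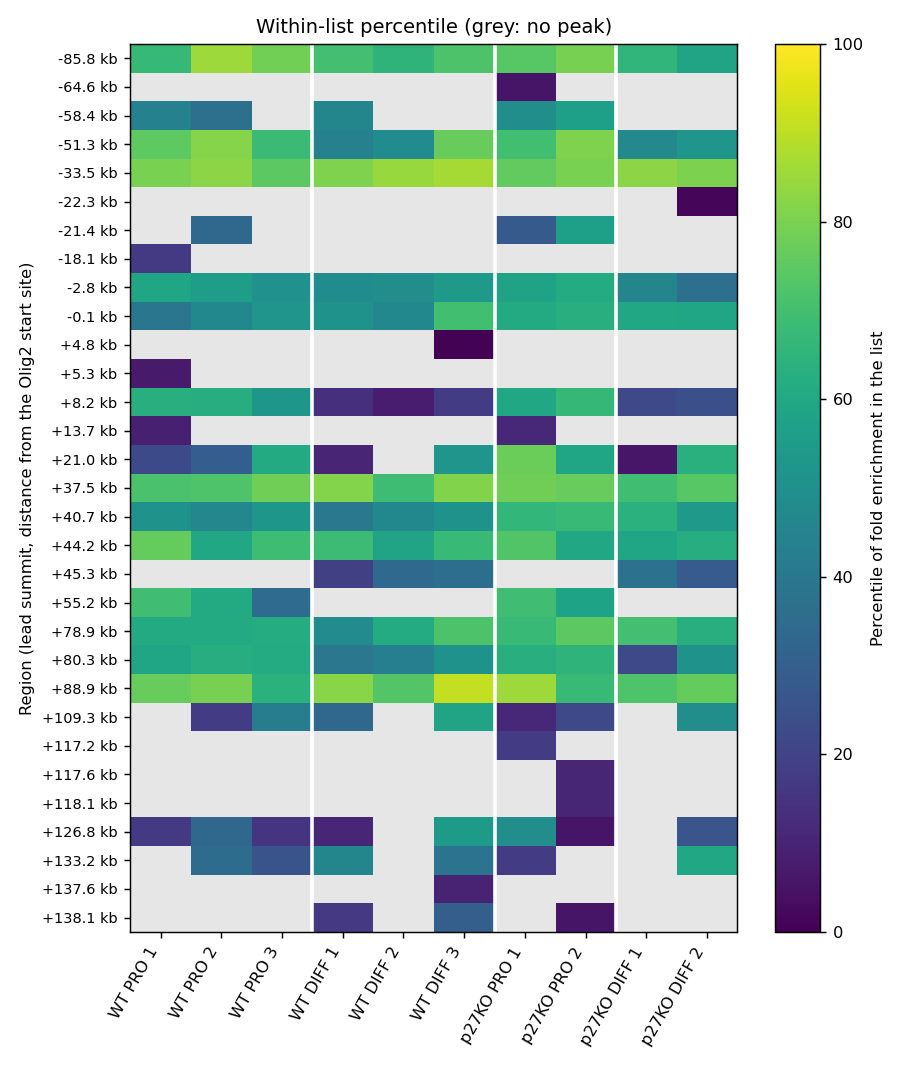
Percentile of fold enrichment within each list (colour) for the 31 regions (rows, ordered by distance from the Olig2 start site) in the 10 libraries (columns). Grey cells are libraries without a peak, and the rows at +45.3 and +55.2 kb are filled in one condition and grey in the other.

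At the Olig2 promoter (chr16:91224860-91225813, summit 93 bp upstream of the start site) a peak was called in every library. Fold enrichments were 4.95, 5.57 and 5.62 in WT PRO, 5.43, 4.92 and 7.50 in WT DIFF, 6.49 and 6.87 in p27KO PRO, and 6.36 and 7.05 in p27KO DIFF. These overlapped between conditions, and as a percentile of the list they ran from 39.1 to 62.9 at PRO and from 46.5 to 69.7 at DIFF.

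At the Olig1 promoter (chr16:91269461-91270327, summit 78 bp upstream) fold enrichments were 9.42, 6.995 and 7.71 in WT PRO and 7.09, 5.82 and 7.19 in WT DIFF. In p27KO they were 8.54 and 6.51 at PRO and 6.16 and 7.47 at DIFF. PRO and DIFF overlapped in both genotypes, and the percentile ran from 58.3 to 76.5 over the 10 libraries. Over the 10 libraries the scores of the Olig1 and Olig2 promoter regions had a Pearson correlation of −0.32. This is a description that carries differences between the libraries in condition, list length, and perhaps depth and composition.

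To compare groups, regions were ranked in each list by their highest fold enrichment, ranks were converted to normal scores (missing peaks shared the lowest rank), and limma was run on the 70627 regions that had a peak in at least 5 libraries. A change of 1 is 1 SD of the normal distribution onto which the ranks were mapped. A list with more missing peaks places its called peaks higher on this scale, so that list length enters the scores. Regions with an adjusted p under 0.05 are called. Of the 31 regions of the locus, 19 entered the test. In WT, 2 of the 19 were lower at DIFF, where 10.1% of all tested regions were called lower, and 1 was higher, where 9.15% were. In p27KO, 1 was lower (6.48% of all tested regions) and 1 was higher (5.83%). The 3 regions involved lay at +8.2, +45.3 and +55.2 kb. The last 2 had peaks in one condition only and entered the test through it, so that a difference was built into their selection. Among the 17 regions of the locus with a peak in both conditions, 1 was lower in WT (8.12% of all such regions) and 0 were higher (8.22%), and in p27KO 0 were lower (5.11%) and 0 higher (4.73%) by limma. The median change over the 19 regions was 0.08 in WT and −0.01 in p27KO, beside 0.03 and 0.04 over all tested regions.

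Neither promoter was among them. The score of the Olig2 promoter was 0.45 ± 0.17 (SE) higher at DIFF in WT (limma, adjusted p = 0.0965) and 0.17 ± 0.21 higher in p27KO (adjusted p = 0.681). With ranking by −log10 p, these changes were 0.09 and −0.13. Its scores ran from −0.44 to 0.16 at PRO and from 0.17 to 0.31 at DIFF, and so did not overlap on this scale, whereas fold enrichments and percentiles did. From PRO to DIFF its mean percentile went from 46.0 to 55.9 in WT and from 62.0 to 59.3 in p27KO. DIFF lists were shorter on the whole, which raises the score of a peak at a given percentile, and the part of this in the score change was not tested. For the Olig1 promoter the changes were 0.02 ± 0.19 in WT (limma, adjusted p = 0.955) and 0.06 ± 0.24 in p27KO (adjusted p = 0.905). Among the 14985 promoters tested, 0.848% were called in WT and 0.48% in p27KO. There the Olig2 promoter had an adjusted p of 0.267 in WT (limma) and the Olig1 promoter one of 0.968.

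Separation of the conditions depended on the scale. By score, 2 of the 19 regions, at +8.2 and +55.2 kb, were higher in every PRO than in every DIFF library (11.1% of all tested regions), and 2 others, the Olig2 promoter and +45.3 kb, were higher in every DIFF library (10.7%). By percentile, 3 were higher in every PRO library (15.3% of all tested regions), with the +80.3 kb region added, and 1, at +45.3 kb, in every DIFF library (5.58%). By fold enrichment, 5 were higher in every PRO library (16.1%), with the −85.8 and −2.8 kb regions added, and the +45.3 kb region in every DIFF library (4.32%). The +45.3 and +55.2 kb regions had peaks in one condition only, so that their separation on each scale was built into their selection. Apart from them, the score separated only +8.2 kb and the Olig2 promoter. Shares without such regions were not computed.

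At +80.3 kb, in an intron of Gm15966, fold enrichments were 6.65 to 7.31 at PRO and 3.78 to 6.15 at DIFF, and percentiles were 59.0 to 65.1 and 22.0 to 51.0. Its score changed by −0.24 ± 0.19 (SE) in WT and −0.39 ± 0.23 in p27KO (limma, adjusted p = 0.429 and 0.329). The −2.8 kb region had fold enrichments of 5.61 to 6.80 at PRO and 4.84 to 5.49 at DIFF, whereas its percentiles overlapped. The +80.3 and −2.8 kb regions were named after their values were seen.

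The intergenic +8.2 kb region (chr16:91233207-91234050), downstream of Olig2, kept a peak in all 10 libraries. Fold enrichments were 7.28, 7.35 and 5.82 in WT PRO and fell to 3.38, 3.12 and 3.29 in WT DIFF. In p27KO they were 6.40 and 7.55 at PRO, and 3.78 and 4.26 at DIFF. Every PRO library was above every DIFF library in both genotypes, on the fold scale and as a percentile of the list (53.0 to 66.8 at PRO, 7.77 to 24.4 at DIFF). In bulk libraries, fewer cells of a type and less open chromatin per cell cannot be told apart. The peaks were wider at PRO, 635 to 844 bp against 225 to 494 bp at DIFF. This was not particular to the region, since at +37.5 kb, which was not called, widths were 1068 to 1239 bp against 867 to 972 bp. The share of all regions with wider PRO peaks was not counted. The score fell by 0.83 ± 0.21 (SE) in WT (limma, adjusted p = 0.0165). The change of −0.67 ± 0.25 in p27KO did not pass the test (adjusted p = 0.12), and the difference between the genotypes' changes was 0.17 ± 0.33 (limma, unadjusted p = 0.625). The p27KO change passed when peaks were ranked by −log10 p instead (−0.81, limma, adjusted p = 0.0247). The WT call was lost without WT PRO replicate 1 (adjusted p = 0.0521) or replicate 2 (adjusted p = 0.0546).

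The +55.2 kb region (chr16:91280577-91280985), which lies 10.9 kb downstream of the Olig1 start site in an intron of Gm15966, was the only region of the locus with a peak in every PRO and no DIFF library. This pattern was held by 1.88% of all merged regions. Fold enrichments were 8.30, 7.21 and 4.39 in WT PRO, and 7.87 and 6.35 in p27KO PRO, so that WT PRO replicate 3 was the lowest. Within their lists these peaks stood between the 34.9 and 69.4 percentile, above the ranks at which single-library peaks of the locus were found. The fitted change in score was −1.36 in WT and −1.49 in p27KO.

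In the opposite direction, the +45.3 kb region (chr16:91270406-91271132) had a peak in every DIFF and no PRO library, as 0.693% of all merged regions did. It lies within Olig1, a gene with a single exon, and its summits were 952 to 1013 bp from the start site, in the 3′ UTR just past the coding part. Fold enrichments were 3.58, 4.24 and 4.10 in WT DIFF, and 4.51 and 4.37 in p27KO DIFF. These were lower than at the Olig1 promoter in the same libraries, at the 18.9 to 37.4 percentile of their lists against 58.3 to 68.5. The fitted change in score was 1.27 in WT and 1.44 in p27KO. The +45.3 kb and +55.2 kb regions each had a peak in 5 libraries and so entered the test only through the condition in which they were high, and the sizes of their changes depend on the tied rank given to missing peaks. Their p-values are therefore not given, and their changes are descriptions.

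The peak called at DIFF within Olig1 stood apart from the promoter peak, which ended 260 to 555 bp from the start site at DIFF and 383 to 523 bp at PRO. Since 78 bp separated the merged regions, merging peaks up to 200 bp apart made them 1 region, whose change was 0.02 in WT and 0.06 in p27KO and was not called. A region takes its highest fold enrichment, and the promoter peak was the higher in every library. The joined region therefore repeats the promoter and says nothing about the +45.3 kb peak.

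**Figure D3:**
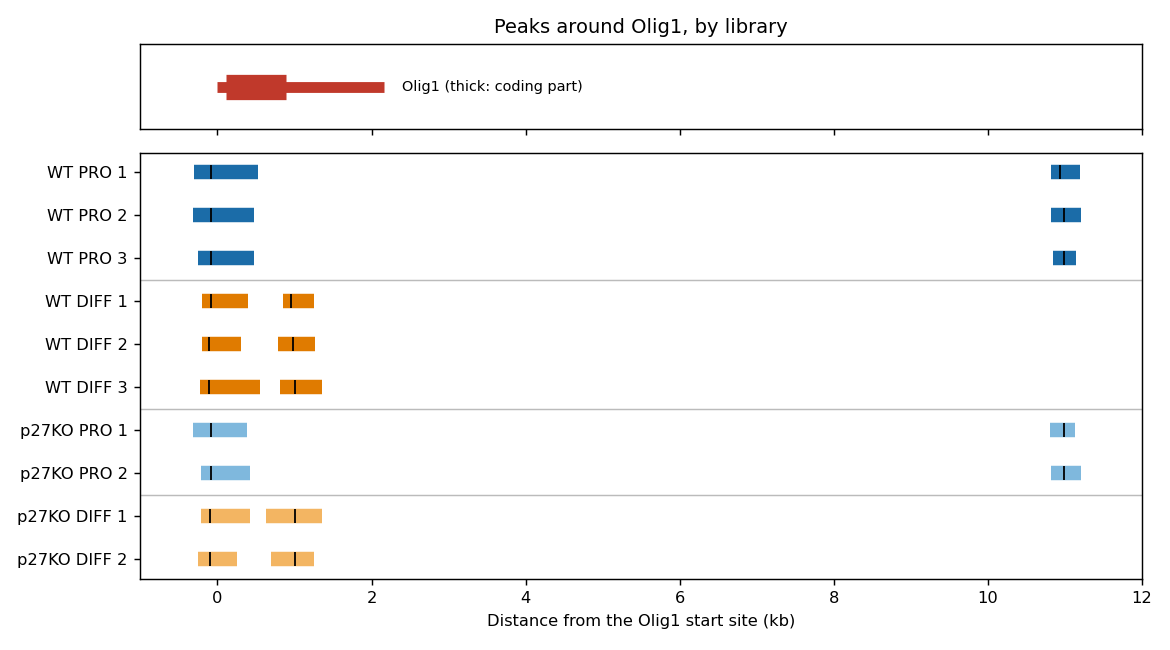
Peaks from 1 kb upstream to 12 kb downstream of the Olig1 start site (horizontal axis, kb) in each library (rows), as bars with the summit as a black tick, below the Olig1 gene model. The 5 DIFF libraries have an additional peak about 1.0 kb into the gene and the 5 PRO libraries have the peak at 10.9 kb.

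**Figure D4:**
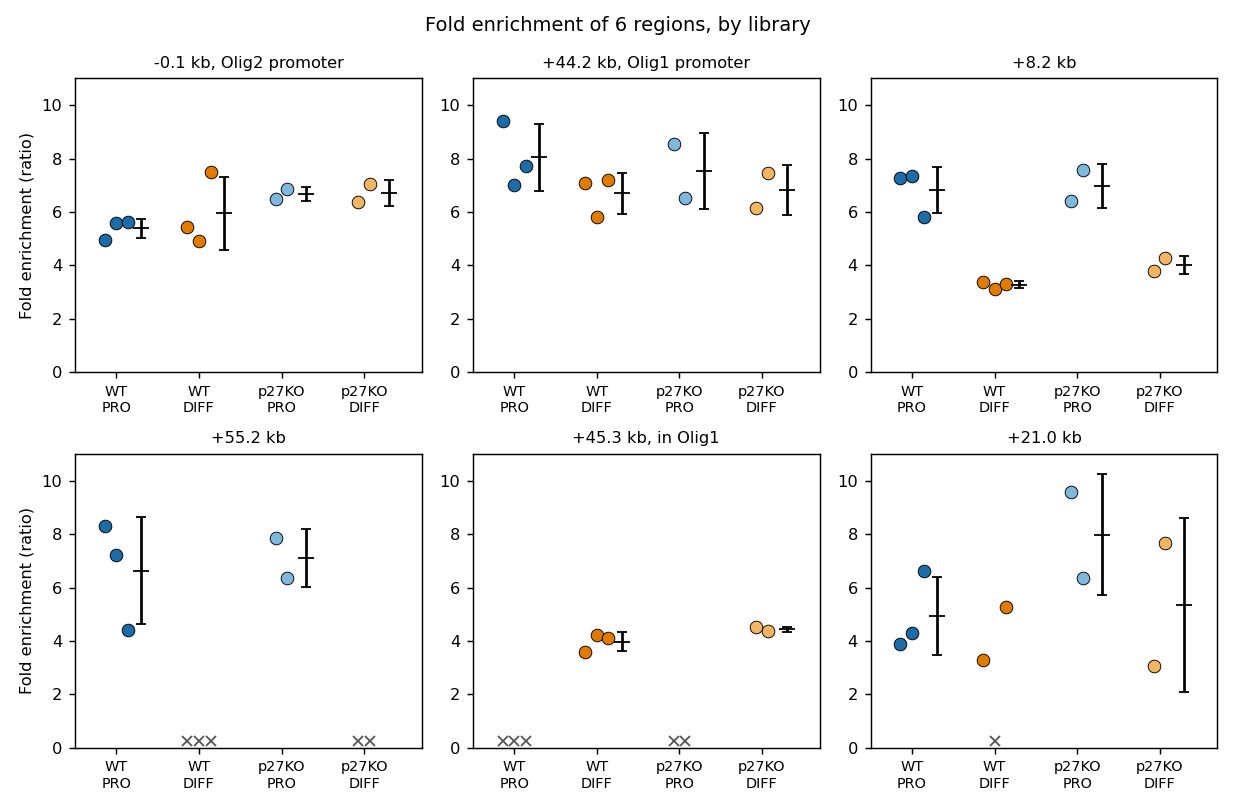
Fold enrichment (ratio, vertical axis) at 6 regions in the 4 groups. Points are libraries, black marks are the mean ± SD of a group whose libraries all have a peak, and crosses near the base line are libraries without a peak. At +8.2 kb the DIFF libraries sit between 3.12 and 4.26, below all PRO libraries.

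The remaining 16 tested regions were not called in any contrast, and their changes between conditions, averaged over genotypes, ran from −0.64 at −58.4 kb to 0.68 at +133.2 kb. The −58.4 kb region had a peak in 2 of 3 WT PRO, 1 of 3 WT DIFF, 2 of 2 p27KO PRO and 0 of 2 p27KO DIFF libraries. Its score changed by −1.16 ± 0.53 (SE) in p27KO (limma, adjusted p = 0.199). Both p27KO DIFF scores (−1.45 and −1.25) are the tied lowest rank of lists without a peak there. With only the p27KO libraries fitted the region was called, but that call rests on the tied rank and is a description. The −51.3 kb region, present throughout, changed by −0.34 ± 0.21 in WT and −0.50 ± 0.26 in p27KO (limma, adjusted p = 0.303 and 0.258). Of the 12 regions that were not tested, those at −21.4 and +138.1 kb had a peak in 3 libraries and that at +13.7 kb in 2.

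**Figure D5:**
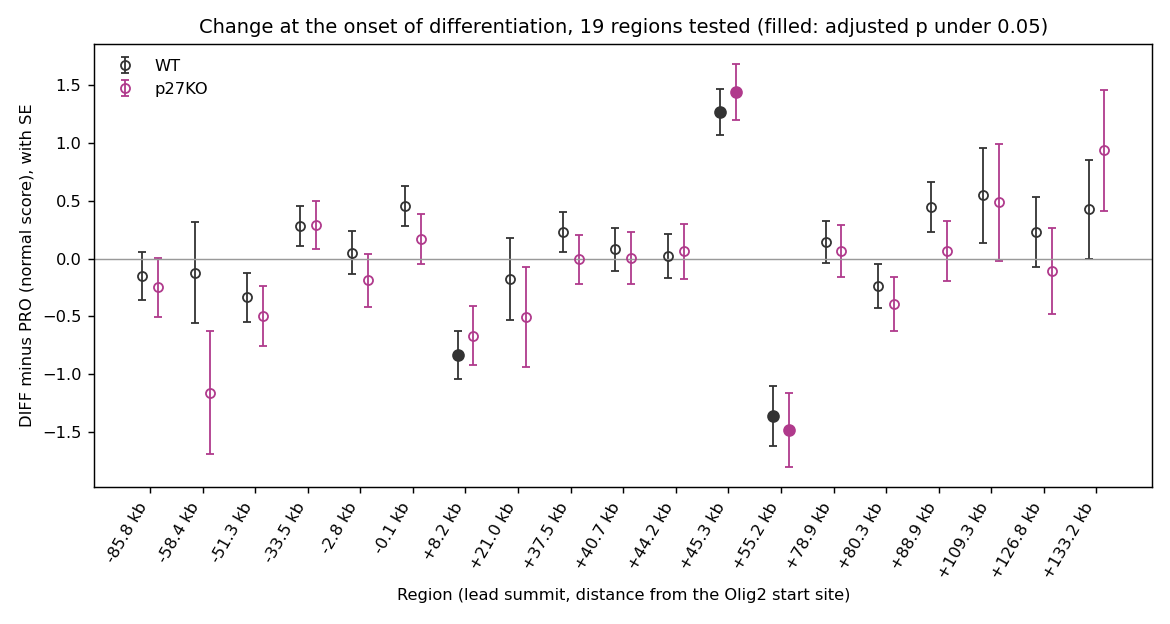
Change in normal score from PRO to DIFF (vertical axis, with SE) in WT and p27KO for the 19 tested regions, ordered by distance from the Olig2 start site. Filled points have an adjusted p under 0.05, at +8.2 kb in WT and at +45.3 and +55.2 kb in both genotypes, the last 2 having peaks in one condition only.

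As a whole, the window held 15 to 25 peaks per library. They numbered 21.4 ± 2.61 (SD, n = 5) at PRO and 19 ± 3.08 (SD, n = 5) at DIFF. Averaged over genotypes, DIFF minus PRO was −2.92 and did not pass the test (exact permutation within genotype, two-sided, p = 0.183, adjusted over 4 tests 0.367). Peaks numbered 20 ± 2 (SD, n = 3) at PRO against 19.7 ± 4.04 (SD, n = 3) at DIFF in WT, and 23.5 ± 2.12 (SD, n = 2) against 18 ± 1.41 (SD, n = 2) in p27KO. The p27KO counts did not overlap (25 and 22 against 17 and 19), whereas the WT counts did. The lengths of the lists behaved in the same way. In p27KO they were 91801 and 83854 peaks at PRO against 67589 and 73220 at DIFF. WT lists held 76372 to 80179 peaks at PRO and 57534 to 88738 at DIFF. Divided by list length, the p27KO counts still did not overlap but lay closer together, and the WT mean was higher at DIFF. The part of list length in the p27KO counts was not tested. The difference averaged over genotypes was −0.25 with the 57000 strongest peaks of each list and −0.5 with 50 kb on each side. The covered length was 12816 ± 662 bp (SD, n = 5) at PRO and 10104 ± 1905 bp (SD, n = 5) at DIFF, with WT DIFF replicate 3 (12450 bp) within the PRO range. The difference of −2687 bp had an exact permutation p of 0.0333, or 0.133 adjusted over the 4 tests, where the smallest p possible was 0.0167. DIFF lists were shorter on the whole (57534 to 88738 peaks) than PRO lists (76372 to 91801 peaks), and the part of list length in this difference was not tested.

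Loss of p27 was compared at each condition to ask whether the locus differed before or after mitogen withdrawal. Between p27KO and WT, 0 of the 19 regions were called at PRO (0.034% of all tested regions) and 0 at DIFF (0.0156%) by limma, and 0 had an unadjusted p under 0.05 in either. The change from PRO to DIFF differed between genotypes in 0 of the 19 regions (0% of all tested ones), and again 0 had an unadjusted p under 0.05. A peak in every p27KO and no WT library was found at 0 of the 31 regions (0.0415% of all merged ones), and the reverse at 0 (0.0211%). By score, every p27KO library stood above every WT library at 0 of the 19 (0.412% of all tested regions), and below at 0 (0.415%). With 2 p27KO libraries per condition, an absence of calls does not show that the genotypes were alike.

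The largest differences between genotypes, averaged over conditions, were at +21, +40.7 and +133.2 kb. At +21 kb, fold enrichments were 3.88, 4.31 and 6.62 in WT PRO and 9.58 and 6.37 in p27KO PRO. At DIFF they were 3.29 and 5.29 in WT, where replicate 2 had no peak, and 3.06 and 7.67 in p27KO. The genotypes overlapped in both conditions, and the score difference was 0.73 ± 0.40 (SE) at PRO (limma, adjusted p = 0.967) and 0.40 ± 0.40 at DIFF (adjusted p = 0.995).

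At +40.7 kb, 3.6 kb upstream of Olig1, fold enrichments were 5.87, 5.49 and 5.78 in WT PRO, 4.64, 4.95 and 5.25 in WT DIFF, 7.36 and 7.61 in p27KO PRO, and 6.79 and 6.52 in p27KO DIFF. All 4 p27KO libraries were above the 6 WT libraries in fold enrichment (1 of the 19 regions, 1.62% of all tested regions) and in percentile (39.9 to 52.8 in WT and 54.0 to 67.7 in p27KO, 1 of the 19, 0.522%). The scores of the genotypes overlapped (−0.25 to 0.18 in WT and 0.07 to 0.40 in p27KO). Of the 19 regions, 0 had every WT library above every p27KO library in fold enrichment (0.0934% of all tested regions) or percentile (0.123%). The differences were 0.35 ± 0.21 at PRO and 0.27 ± 0.21 at DIFF (limma, adjusted p = 0.987 and 0.995). The +133.2 kb region had a peak in 4 WT libraries (fold enrichments 4.71 and 3.90 at PRO, 5.06 and 4.23 at DIFF) and in 2 p27KO libraries (3.35 at PRO, 7.10 at DIFF). The differences were −0.50 ± 0.48 at PRO and 0.01 ± 0.48 at DIFF (limma, adjusted p = 0.997 and 0.999).

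At the promoters, the score of Olig2 was 0.30 ± 0.20 (SE) higher in p27KO at PRO and 0.02 ± 0.20 higher at DIFF. For Olig1 the differences were −0.17 ± 0.22 at PRO and −0.13 ± 0.22 at DIFF. Among all tested promoters, 0.0267% were called at PRO and 0.0267% at DIFF, and for the difference between the genotypes' changes 0% were. Neither Olig promoter was called in these 3 comparisons (limma, adjusted p of at least 0.9997 over promoters).

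To place the pair within its network, promoters of 36 genes known to act upstream of, with or downstream of OLIG proteins were examined, of which 32 were tested. By role, 6 of 6 Sonic hedgehog pathway genes, 3 of 4 ventral homeodomain and OLIG family genes, 5 of 6 SOX genes, 8 of 8 bHLH partners and inhibitors, 3 of 3 chromatin remodeller genes, 4 of 4 progenitor genes and 3 of 5 myelin genes were tested. Olig3, the third family member, had a promoter peak in 1 library. Of the 32, 0 were called in any of the 5 contrasts by limma, where 0.848% (DIFF against PRO in WT), 0.48% (the same in p27KO), 0.0267% (p27KO against WT at PRO), 0.0267% (the same at DIFF) and 0% (the difference between the genotypes' changes) of all tested promoters were. In that order, 4, 2, 2, 0 and 0 of the 32 had an unadjusted p under 0.05, beside 15.1%, 10.0%, 2.75%, 2.58% and 1.83% of all tested promoters. The median change at DIFF was 0.11 in WT and 0.07 in p27KO, beside 0.12 and 0.14 over all tested promoters.

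Sox2, the stem cell factor of the SOX family, had its promoter peak at a mean percentile of 77.7 and changed by 0.42 ± 0.21 (SE) at DIFF in WT (limma, adjusted p = 0.373) and 0.29 ± 0.26 in p27KO (adjusted p = 0.699). The promoter peak of Pdgfra, the growth factor receptor of oligodendrocyte progenitors, was at a mean percentile of 70.6, with changes of 0.03 ± 0.21 in WT and −0.31 ± 0.25 in p27KO (limma, adjusted p = 0.965 and 0.67). Nkx2-2, a homeodomain factor of ventral progenitors and oligodendrocytes, had a weaker peak (mean percentile 32.0, 9 libraries) and was 0.56 ± 0.24 higher in p27KO at PRO (limma, unadjusted p = 0.0428, adjusted p = 1.00). Sox10, which drives myelin genes together with OLIG factors, had a promoter peak in 1 WT PRO library.

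The promoters whose scores varied most like those of the pair were found among 14590 others by Pearson correlation over the 10 libraries. For Olig2 they were Acy1 (r = 0.96), an aminoacylase gene, and Eef1b2 and Ndufs1 (r = 0.95 each), which share 1 region and encode a translation elongation factor subunit and a subunit of mitochondrial complex I. For Olig1 they were Mcidas, a regulator of multiciliated cells, Bicral and Rabep1 (r = 0.90 each). These values come from the best of many promoters over 10 libraries. The libraries differ in condition and list length, and perhaps in depth, which is common to all promoters. The values are therefore given as a description.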

How the data were processed

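Nuclei of 50000 cells per library were profiled by ATAC-seq, and replicates are described as biological in the series' design. Per the study's methods, the authors trimmed reads with Cutadapt and Trimmomatic, aligned them to GRCm38 with Bowtie2, flagged duplicates by Picard and used MACS2 to call narrow peaks in each library (FDR 0.05). Versions, read shift and extension size are not given in the sources used here. The deposited lists give, for each peak, the fold enrichment at the summit (a ratio to the local background), its −log10 p and −log10 q, and the summit position. They hold no read counts, so the depth of each library is unknown and longer lists may come from more reads.

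Members and gene lists were chosen with earlier results of these data known. Peaks of the 10 lists that overlapped by at least 1 bp were merged, and regions were ranked in each list by their highest fold enrichment, and ranks were converted to normal scores (missing peaks shared the lowest rank). Regions with a peak in at least 5 of the 10 libraries were fitted with limma 3.58.1 (R 4.3.3) as 4 group means, with 5 contrasts and Benjamini-Hochberg adjustment over all tested regions. A promoter is the region with the summit nearest to a protein-coding start within 3 kb (GENCODE M21), adjusted over the 14985 promoters tested. Peak number and covered length of the window were compared by exact permutation within genotype or condition. The fit and the permutation test were checked on simulated data. Sequences and the promoter table are from RefSeq GRCm38.p6, and letters of motifs were searched on both strands in 300 bases around lead summits. The RefSeq promoter table matched 1 of the 2 genes, Olig2.

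Values are given in full for both promoter regions, regions called in any contrast, the 5 of highest mean percentile, the 3 with the largest change for each of condition and genotype, and regions with a peak in every library of one condition or genotype and none of the other, and for the network genes Sox2, Sox10, Nkx2-2 and Pdgfra. Replicate numbers were not used to pair libraries, since the WT correlations of same-numbered deviations were 0.0575, 0.0647 and 0.0328, and neither labels nor methods tie a number to an animal. Alternatives were other list lengths, thresholds, ranking measures, filters, merging distances, windows, sample sets and a replicate block, and leaving out each library. The values of 1 marker gene are not reported here.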

Additional observations from a re-analysis of the deposited data

How the results depend on the processing

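Of 140 differences and changes obtained by leaving out 1 library (14 results, counts of calls not included), 123 kept their direction and their side of the threshold, as did 81 of 93 under other settings. With the 57000 strongest peaks of each list, the difference in peak number between p27KO and WT turned to −0.917, that in covered length turned to −29.1 bp, and the covered length between conditions differed by −2104 bp (exact permutation p = 0.0667). That setting left 1 of 18 tested regions called in p27KO, beside 8604 of 56282 over the genome. Merging peaks up to 200 bp apart also left 1 of 18 in p27KO, beside 8651 of 70155. Testing regions present in all 10 libraries left 1 of 12 in WT and 1 of 12 in p27KO, beside 4880 and 2398 of 37862. Under that filter the +45.3 and +55.2 kb regions leave the test and +8.2 kb is the region called in both.

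The Olig1 promoter change turned to −0.20 in WT and −0.15 in p27KO when peaks were ranked by −log10 p, and to −0.036 in WT with regions in all 10 libraries. Without 1 library it ranged from −0.11 (without WT PRO replicate 2, and −0.07 without WT DIFF replicate 1) to 0.14 in WT, and from −0.10 (without p27KO PRO replicate 2) to 0.22 in p27KO. With that ranking the Olig2 promoter change turned to −0.13 in p27KO and was 0.09 in WT (limma, adjusted p = 0.738). The +8.2 kb change in p27KO passed the test with regions in all 10 libraries (−1.17, limma, adjusted p = 0.0209). The cause was not tested.

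Leaving out each library gave 2 to 3 called regions in WT and 1 to 2 in p27KO (1 without p27KO PRO replicate 1 or p27KO DIFF replicate 2). It gave −3.67 to −1.75 for peak number between conditions, and −0.25 (without WT DIFF replicate 2) to 1.67 between genotypes. Covered length ranged from −3344.5 to −2029 bp between conditions, where 3 of 10 kept a p under 0.05, and from −278 bp (without p27KO DIFF replicate 2) to 1038 bp between genotypes, with −116 bp without WT DIFF replicate 2. Where 1 p27KO library remained in a group, it was assumed to vary like the other groups.

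With the replicate block, 3 regions were called in WT and 3 in p27KO, beside 12193 and 7494 of all 70627 tested regions. With only the groups compared there were also 3 and 3, beside 12344 and 7346. The p27KO calls were −58.4, +45.3 and +55.2 kb in both fits. At each of these regions the p27KO libraries had peaks in one condition only, so the p27KO calls rest on the tied rank of missing peaks. Same-numbered p27KO libraries correlated at −0.141. The crossed pairing, chosen after seeing the data, gave those 3 calls in p27KO, beside 8652 of all 70627 tested regions. In WT every library correlated best with its own number, a hint from the data only. Over all tested regions, calls went from 13568 to 4880 in WT and from 8695 to 2398 in p27KO when a peak in all 10 libraries was required. The network list, with 30 to 32 promoters tested, had 0 calls under every setting with at least 2 libraries per group. Few promoters were called at all, at most 209 of 14432 in WT and 81 of 14432 in p27KO (57000 strongest peaks). With only the groups compared, 0 of 14985 were called in p27KO. Calls this rare leave little room for any in the list, so its 0 says little about these genes. The read depth of each library is unknown, and with 2 p27KO libraries per condition small differences could not be detected.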
